A study of Mus musculus with 18 samples.

Results

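Respiratory complex I is built largely from subunits whose genes lie in the nucleus and are named Nduf followed by a, ab, b, c, s or v and a number. Genes were taken by that name pattern, which 37 of the 19862 genes in the deposited table matched, and all 37 were above the limit for testing. The libraries came from murine osteosarcoma cells, a bone tumour line derived from mice with conditional deletion of p53 and Rb, with floxed Prmt1 alleles (Prmt1f/f) and a stably expressed CreER, a Cre recombinase switched on by tamoxifen. The labels give the source as osteosarcoma at postnatal day 299 on a mixed background. Knockout cells (labelled Prmt1-/-) had been given 4-hydroxytamoxifen (4OHT), and control cells, labelled wild type, had been given ethanol. The control cells therefore carry the same floxed alleles, CreER and tumour background, and cells given 4OHT without floxed alleles are not among the samples analysed here, so what the drug or Cre did cannot be told apart from what losing Prmt1 did. Prmt1 encodes an enzyme that methylates arginines in proteins. RNA was taken from the whole cytoplasmic lysate (Total) or from sucrose gradient fractions pooled into a Light fraction (fewer than 3 ribosomes per message) and a Heavy fraction (more than 3). Each of the 6 groups has 3 libraries, and nothing states that they came from separate cultures. The p-values below therefore reflect variation among these libraries alone, and that variation may be technical.

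Complex I is the entry point of the mitochondrial respiratory chain: it oxidises NADH, passes the electrons through a flavin and a chain of iron-sulfur clusters to ubiquinone, and pumps protons across the inner membrane. Its matrix arm holds the N module, where NADH binds, and the Q module, where ubiquinone is reduced, and its membrane arm does the pumping. The core subunits of the matrix arm are encoded in the nucleus and carry the redox centres, those of the membrane arm are encoded by mitochondrial DNA, and many small accessory subunits surround both arms. Messages with a short coding sequence have room for few ribosomes, so on a sucrose gradient they are found among light polysomes more than long ones.

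Of the 37 genes, 7 encode the nuclear core subunits, such as Ndufv1 and Ndufs1, and 30 the others. Ndufa4 bears the name but is now assigned to complex IV. The genes lie on 15 chromosomes, and their coding sequences are short: the median was 435 nt, against 1317 nt over all genes with a coding length (GENCODE M21, GRCm38, the assembly called mm10). There were 27 of up to 600 nt, 6 of over 1000 nt and 4 between. The shortest was Ndufa1 with 210 nt and the longest Ndufs1 with 2181 nt, both without the stop codon. Exons of 16 members share bases with another annotated gene, and the strand setting of the counting is not given, so some of their reads may belong to a neighbour.

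The sequences of a pair of members are shown because their size bears on the results below. Ndufa1, a small membrane arm subunit, has the shortest coding sequence, and Ndufv3, an N module accessory subunit, is annotated with a long coding form and shorter ones. Both sequences are coding strands from GENCODE M21 on GRCm38. The first runs over 37187724 to 37191090 of chromosome X (minus strand, introns removed), and the stop codon printed after it lies outside that span. Start and stop codons are in capitals. The second is bases 113 to 232 of the coding sequence of the Ndufv3 short form that shares both coding ends with the long one, and which spans 31520214 to 31531249 of chromosome 17 (plus strand). Its capitals mark the 4 bases on each side of the junction where the long form keeps an exon of 1092 nt.
Ndufa1: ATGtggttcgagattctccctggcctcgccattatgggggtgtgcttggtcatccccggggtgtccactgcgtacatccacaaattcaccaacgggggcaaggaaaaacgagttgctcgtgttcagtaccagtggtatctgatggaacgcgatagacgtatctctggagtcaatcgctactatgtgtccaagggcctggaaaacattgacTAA
Ndufv3 short form: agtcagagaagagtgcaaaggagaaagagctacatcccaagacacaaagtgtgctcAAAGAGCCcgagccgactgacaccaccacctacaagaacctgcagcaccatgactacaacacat
The long form of Ndufv3 codes for 1404 nt and this short form for 312 nt, and a further short form codes for 258 nt, all without the stop codon. The deposited values are per gene and do not separate the forms.

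The deposited values correspond to library sizes of 32.3 to 57.9, in units of 1000000 reads. Prmt1 itself averaged 166 ± 16.3 CPM in knockout cells and 273 ± 14.9 CPM in control cells in Total RNA (mean ± SD, n = 3 here and below; limma adjusted p = 0.0202; CPM is counts per 1000000 reads). It averaged 110.3 ± 41.6 CPM in knockout cells and 387 ± 22.6 CPM in control cells in Heavy RNA (adjusted p = 7.87e-06) and 209.9 ± 38.1 CPM in knockout cells and 239 ± 19.0 CPM in control cells in Light RNA (adjusted p = 0.506, not called). Of osteoblast lineage genes, in Total RNA 3 of 9 tested rose and 3 fell, where 16.1% of all genes tested rose and 10.3% fell. The collagen gene Col1a1 averaged 2632 ± 298 CPM in knockout cells and 1828 ± 461 CPM in control cells there, and the late marker Ibsp was at or near 0. Alpl averaged 27.9 ± 1.45 CPM in knockout cells and 9.21 ± 1.88 CPM in control cells in Total RNA. Runx2 was lower in every knockout Total library, at 47.5 ± 3.76 CPM in knockout cells and 77.6 ± 6.25 CPM in control cells. Col1a2 overlapped, at 2210 ± 457 CPM in knockout cells and 2047 ± 291 CPM in control cells. The leukocyte marker Ptprc and the epithelial marker Epcam averaged at most 0.0562 CPM in either group, and the endothelial marker Pecam1 at most 0.311 CPM. Other genes of those lists were raised. The gene of lowest p in Total RNA was Cd68 for macrophages (log2 change 1.15), Krt14 for epithelium (2.21) and Flt1 for endothelium (1.35), each called higher. Of the macrophage list 4 of 7 rose and 0 fell in Total RNA, and its sum ran from 16.4 to 20.0 CPM in knockout and from 6.62 to 8.73 CPM in control libraries. Of the epithelial list 4 of 7 rose (sums of 16.6 to 20.4 CPM in knockout and 5.93 to 8.55 CPM in control libraries), and of the endothelial list 2 of 6 (sums of 3.33 to 3.60 CPM in knockout and 0.403 to 0.793 CPM in control libraries). These counts likewise stand beside 16.1% of all genes called higher and 10.3% lower. The part of these cell types in the results was not tested. Among the Heavy libraries, knockout 1 stood apart, with a root mean square deviation from its group mean of 0.349 on the log2 scale, against 0.0907 to 0.251 for the other 17 libraries. It held the lowest of the 6 Heavy values for 34 of the 37 members, so calls in Heavy RNA are also given without it. The fit takes the spread of each gene from all 18 libraries together, so this library also enters the tests in Total and Light RNA. Calls in those pools were counted without all the knockout libraries numbered 1, but not without this library alone.

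In Total RNA, complex I messages stayed at similar levels in knockout and control cells. Their summed level was 4632, 4217 and 4209.5 CPM in the knockout libraries and 4327, 4444 and 4409 CPM in the control libraries, and these ranges overlap. In these bulk libraries, fewer cells of a type and less RNA per cell cannot be told apart. Of the 37 members, 1 was called higher and 0 lower at an adjusted p under 0.05 (limma with Benjamini-Hochberg adjustment over 17515 genes, two-sided; 1 member at an unadjusted p under 0.05). Over all genes tested, 26.4% were called, 16.1% higher and 10.3% lower, so 60.9% of calls were higher, where quantile normalization gave 48.9%. The members' log2 changes ran from -0.40 (Ndufb2) to 0.46 (Ndufv3), with a median of -0.06, against -0.01 over genes averaging 1 CPM or more. The groups did not overlap for 14 members, 5 above and 9 below, where 44.5% of all genes did not overlap. A fit of the Total libraries alone called 5 members, Ndufv3 higher and Ndufa3, Ndufb2, Ndufb10 and Ndufab1 lower. Without all the knockout libraries numbered 1 there were 4, Ndufv3 higher and Ndufa6, Ndufb10 and Ndufab1 lower.

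Of the core subunits in Total RNA, Ndufv1 was at 125, 139 and 149.6 CPM in knockout and 107, 134 and 139 CPM in control libraries, and Ndufv2 at 149, 147 and 135 CPM in knockout and 148, 143 and 141 CPM in control libraries. Ndufs1 was at 48.0, 47.5 and 48.1 CPM in knockout and 60.4, 49.9 and 54.6 CPM in control libraries. The groups of Ndufv1 and Ndufv2 overlapped, Ndufs1 was lower in every knockout library, and none of these 3 passed the test. Ndufs3 was at 96.2, 92.9 and 92.8 CPM in knockout and 99.9, 103 and 103 CPM in control libraries. Ndufs7 was at 80.8, 71.5 and 82.9 CPM in knockout and 74.9, 80.1 and 79.7 CPM in control libraries, and Ndufs8 at 88.3, 89.0 and 91.3 CPM in knockout and 89.2, 101 and 102 CPM in control libraries. Ndufs3 was lower in every knockout library, the groups of Ndufs7 and Ndufs8 overlapped, and none of these 3 passed either.

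The member called was Ndufv3, which sits beside the NADH-binding flavoprotein at the tip of the matrix arm. Its level was 103, 76.9 and 75.5 CPM in knockout Total libraries and 57.0, 62.5 and 63.8 CPM in control libraries (log2 change 0.46, SE 0.13, adjusted p = 0.0136, limma). All 3 knockout values lay above the controls, knockout 1 highest. Its adjusted p was 0.082 without knockout 1 and 0.0574 without control 1, so it was not called in either case, though it was called without all the knockout libraries numbered 1. Per kilobase of transcript, which allows levels to be compared between genes, Ndufa4 was the most abundant member in Total RNA at 1037 ± 136 CPM per kb in knockout cells and 979 ± 52.4 CPM per kb in control cells. The least abundant was Ndufs1, the iron-sulfur subunit that receives electrons from the flavoprotein, at 18.5 ± 0.109 CPM per kb in knockout cells and 21.2 ± 2.02 CPM per kb in control cells. The median over the 37 members was 103 CPM per kb in both.

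**Figure D1:**
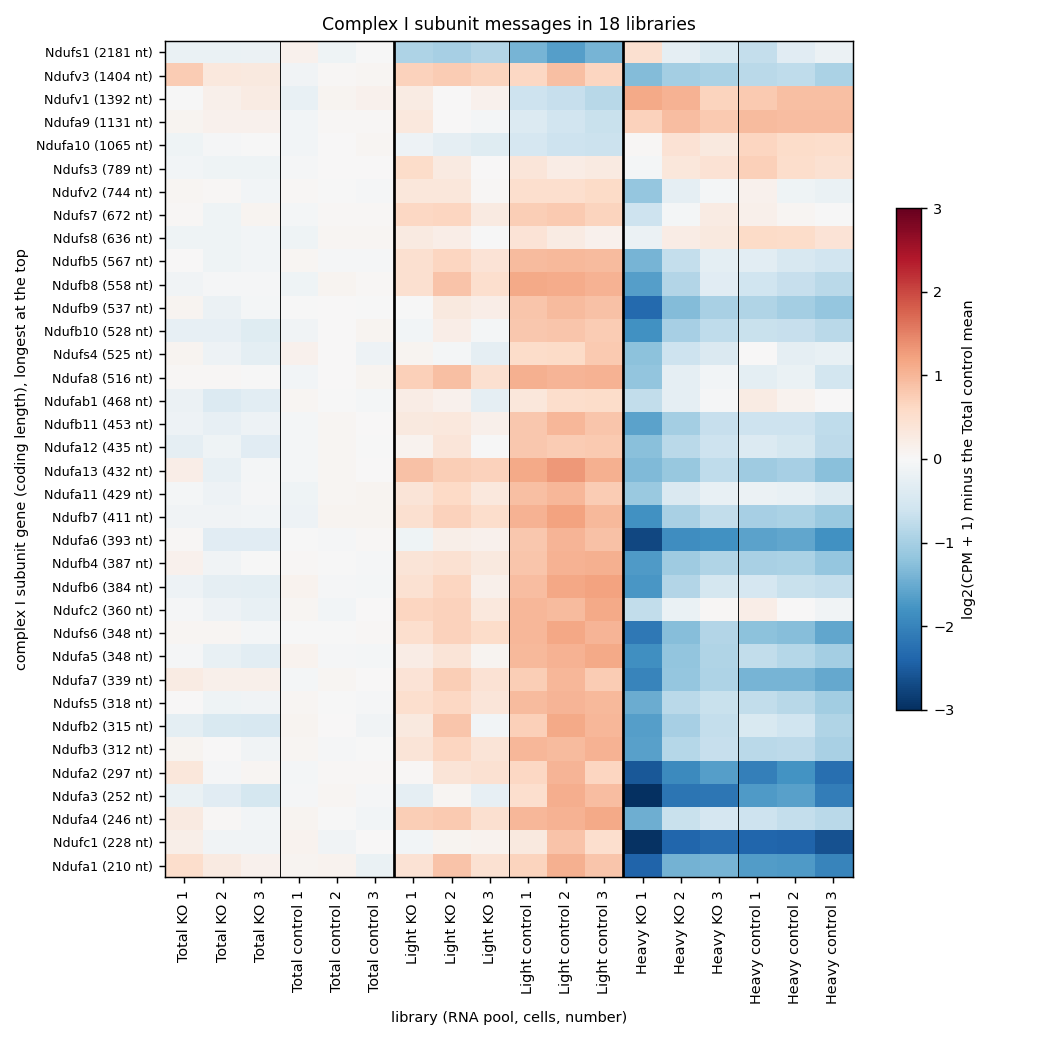
Level of 36 complex I members (rows, longest coding sequence at the top, coding length in nt) in the 18 libraries (columns, knockout before control within each RNA pool), as log2(CPM + 1) minus the gene's mean over the 3 Total control libraries. Light columns are red for most rows and paler in knockout cells, the longest rows except Ndufv3 are blue or paler in Light and red or pale in Heavy, and Heavy knockout 1 is the bluest column.

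The Light fraction held the clearest knockout changes, and they ran in both directions. Of the 37 members, 24 were called, 5 higher and 19 lower, where 39.5% of all genes tested were called, 26.8% higher and 12.7% lower. The summed level of the members was 5749, 6144 and 5237 CPM in knockout libraries and 7179.7, 7713 and 7394 CPM in control libraries, with every knockout sum below every control sum. The median log2 change was -0.46, against 0.14 over genes averaging 1 CPM or more. The groups did not overlap for 32 members, 5 with the knockout above and 27 with it below, where 50.6% of all genes did not overlap, 33.3% above and 17.3% below. Without the knockout libraries numbered 1, 30 members were called, 5 higher and 25 lower.

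The 5 members that rose in Light RNA (limma adjusted p in each case) are among the 6 with a coding sequence over 1000 nt, and included Ndufv1, Ndufa9, Ndufs1 and Ndufa10. Ndufv1, the flavoprotein that binds NADH (chromosome 19, 4007499 to 4012755, minus strand, coding length 1392 nt), was at 150.5, 127 and 137 CPM in knockout and 81.0, 77.8 and 69.8 CPM in control libraries (log2 change 0.85, SE 0.13, adjusted p = 8.82e-05). The lowest knockout value exceeded the highest control value. Ndufa9, an accessory subunit at the junction of the arms (chromosome 6, 126821863 to 126849144, minus strand, 1131 nt), was at 175, 141 and 135 CPM in knockout and 106, 93.9 and 88.4 CPM in control libraries (log2 change 0.63, SE 0.11, adjusted p = 0.000195). Its groups did not overlap either, with knockout 1 the highest library. Ndufs1 (chromosome 1, 63143592 to 63176822, minus strand, 2181 nt) was at 28.4, 27.0 and 29.6 CPM in knockout and 20.2, 16.8 and 20.2 CPM in control libraries (log2 change 0.55, SE 0.19, adjusted p = 0.0262), and Ndufa10, a matrix-facing subunit with a nucleoside kinase fold (chromosome 1, 92439486 to 92473825, minus strand, 1065 nt), at 115, 105 and 98.9 CPM in knockout and 89.8, 82.5 and 81.0 CPM in control libraries (log2 change 0.33, SE 0.10, adjusted p = 0.0188). Both rose in every knockout library relative to every control, but their calls were lost in some alternatives: Ndufs1 was called in 12 of 18 and Ndufa10 in 13 of 18. Exons of Ndufa9 share bases with 1700018A23Rik, and those of Ndufs1 with Eef1b2.

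The 19 that fell were short messages of up to 600 nt and came from accessory parts of the complex. The lowest log2 change was that of Ndufa3, a small membrane arm subunit (chromosome 7, 3617347 to 3620165, plus strand, 252 nt, sharing exon bases with Tfpt), which was at 67.7, 85.5 and 68.6 CPM in knockout and 117, 175 and 155 CPM in control libraries (log2 change -0.99, SE 0.20, adjusted p = 0.00105). Ndufa6, a Q module protein of the LYR family that docks the acyl carrier protein (chromosome 15, 82350139 to 82354291, minus strand, 393 nt), was at 63.9, 79.8 and 77.1 CPM in knockout and 123, 143 and 129 CPM in control libraries (log2 change -0.83, SE 0.19, adjusted p = 0.00236). For both genes the highest knockout value was below the lowest control value. Ndufa5, another Q module subunit (chromosome 6, 24518662 to 24527690, minus strand, 348 nt), was at 105, 118 and 94.8 CPM in knockout and 177, 186 and 197 CPM in control libraries (log2 change -0.82, SE 0.17, adjusted p = 0.00147). Ndufb10, a distal membrane arm subunit (chromosome 17, 24722060 to 24724423, minus strand, 528 nt), was at 111, 135 and 113 CPM in knockout and 207, 208 and 201 CPM in control libraries (log2 change -0.78, SE 0.18, adjusted p = 0.00326). Neither gene's groups overlapped, and the calls of these 4 genes held in all 18 alternatives.

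By place in the complex, the distal membrane arm moved most uniformly in Light RNA: 8 of its 10 members fell and 0 rose, with a median of -0.60. Its other members, Ndufb5 and Ndufb8, had log2 changes of -0.45 and -0.48 and did not pass. Over all genes tested, 12.7% fell and 26.8% rose. The coding sequences of this arm run from 312 to 567 nt, and 43.6% of all genes of up to 600 nt averaging 1 CPM or more fell. Place apart from coding length was not tested. In the proximal membrane arm 6 of 9 fell and 1, Ndufa10, rose. Among Q module accessory subunits Ndufa5 and Ndufa6 fell and Ndufa9 rose, and among N module accessory subunits Ndufs4, needed for a stable N module (-0.72), and Ndufa12 (-0.64) fell. The acyl carrier Ndufab1 also fell (log2 change -0.44, SE 0.16, adjusted p = 0.0339), while Ndufa4 did not pass (-0.40, SE 0.19, adjusted p = 0.101). Of the 7 core subunits 3 rose and 0 fell. Ndufv2 was at 183, 182 and 148 CPM in knockout and 204, 205 and 215 CPM in control libraries (-0.29), and Ndufs7 at 121, 123 and 93.9 CPM in knockout and 130.3, 135 and 125 CPM in control libraries (-0.22). Ndufs8 was at 118, 111 and 96.6 CPM in knockout and 129, 116 and 106 CPM in control libraries (-0.11), and Ndufs3 at 151, 123 and 102 CPM in knockout and 131, 119.8 and 124 CPM in control libraries (-0.01). None of these 4 passed the test.

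These directions followed coding length. Among the 27 members of up to 600 nt, 19 fell and 0 rose, with a median of -0.50, beside -0.40 for the 1507 genes of that length averaging 1 CPM or more, of which 43.6% fell. Among the 6 members over 1000 nt, 5 rose and 0 fell, with a median of 0.59, beside 0.29 for 7446 genes of that length, of which 41.2% rose. As a description, Spearman's rho between coding length and Light change was 0.56 over the 37 members and 0.39 over 11032 genes, and the points share the same libraries. With the trend over coding length removed, 12 members were called, 3 higher (Ndufv1 and Ndufa9 among them) and 9 lower, beside 45.5% of all genes, and the median was -0.23. The 9 were Ndufa3, Ndufa5, Ndufa6, Ndufa12, Ndufb4, Ndufb9, Ndufb10, Ndufb11 and Ndufs4. The trend removed was that of all tested genes with a coding length, low genes included. It was not that of genes averaging 1 CPM or more, so part of the latter may remain in these 12 calls.

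The Light counts depended on single libraries and on scaling. Without control 2 there were 13 calls, without knockout 3 there were 14, and without knockout 1 or control 3 there were 15. Log2 changes were above 0 for 5 members and below 0 for 32, both as deposited and under median-of-ratios scaling. That scaling of the recovered reads gave 3 higher and 27 lower, and quantile normalization 4 higher and 22 lower. Median-of-ratios scaling put the median of genes averaging 1 CPM or more at -0.06, where it was 0.14 as deposited. Relative to those medians the members' median was lower under both. Over all genes these scalings moved the share of calls that were higher to 46.2% and 47.3%, where it was 67.9% in the values as deposited.

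**Figure D2:**
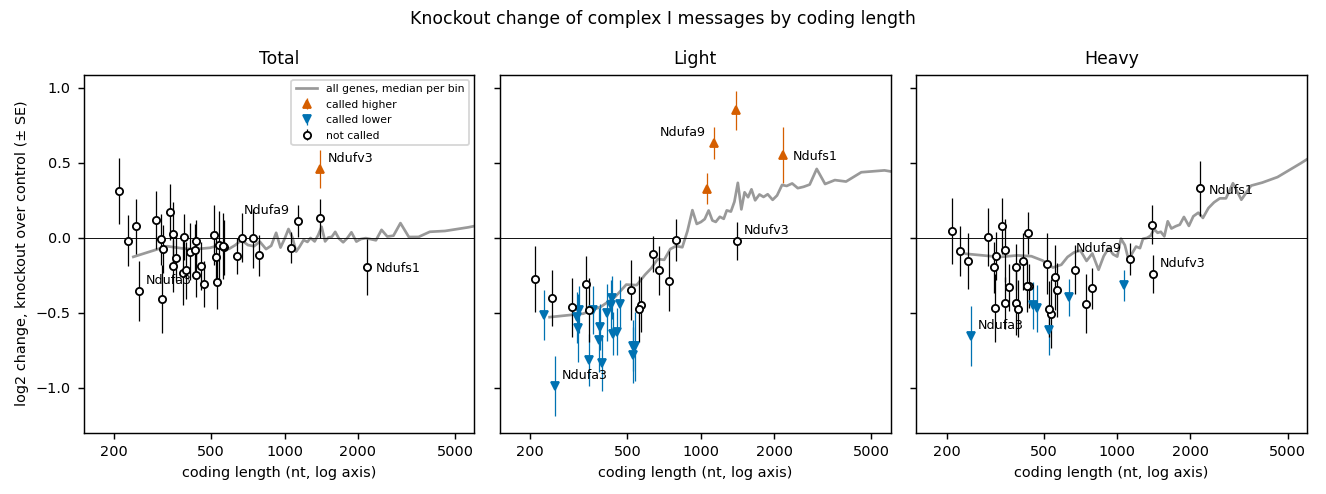
Log2 change of knockout over control (vertical, with SE) against coding length in nt (horizontal, log axis) for 36 members in Total, Light and Heavy RNA. The grey line is the median in length bins of all genes averaging 1 CPM or more. In Light RNA those called lower lie at the short end and those called higher at the long end, while Ndufv3 lies at -0.02.

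In Heavy RNA the members leaned lower, but this rested on few libraries. Of the 37, 6 were called lower and 0 higher (13 at an unadjusted p under 0.05), where 28.9% of all genes were called, 10.4% lower and 18.5% higher. The summed level was 2436, 3272 and 3487 CPM in knockout and 3607, 3505 and 3247 CPM in control libraries, with knockout 1 the lowest and the other knockout sums within the range of the controls or near it. The median log2 change was -0.26, against 0.05 over genes averaging 1 CPM or more. Without Heavy knockout 1 the median was -0.08 and the only call was Ndufa7, higher. Over all genes, 17.1% were called higher and 8.43% lower in that fit. Without all the knockout libraries numbered 1, Ndufs4 was lower and Ndufa7 higher. Without Heavy knockout 3 the median was -0.40 and 20 were called, 19 lower and Ndufs1 higher, while 0 were called without control 1 (6 at an unadjusted p under 0.05) and 1, Ndufs4, without control 2. The groups did not overlap for 8 members, all with the knockout below, where 37.9% of all genes did not overlap and 13.8% had the knockout below. Median-of-ratios scaling called 19 members lower, and with it 44.6% of calls over all genes were higher, where the deposited scaling gave 64.1%.

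The 6 called lower in Heavy RNA came from different parts of the complex. Ndufa3 was at 9.35, 17.0 and 17.4 CPM in knockout and 24.4, 25.6 and 18.7 CPM in control libraries (log2 change -0.65, SE 0.20, adjusted p = 0.0225). Ndufs4, whose loss in humans and mice causes a Leigh-like encephalopathy, was at 31.7, 49.0 and 55.7 CPM in knockout and 76.7, 63.1 and 65.5 CPM in control libraries (log2 change -0.61, SE 0.17, adjusted p = 0.0133). Both had all knockout values below the controls, with knockout 1 lowest. The acyl carrier Ndufab1 was at 34.4, 47.3 and 55.8 CPM in knockout and 68.7, 62.3 and 57.7 CPM in control libraries (log2 change -0.47, SE 0.16, adjusted p = 0.0315). Ndufb11, a distal membrane arm subunit, was at 26.2, 39.9 and 50.1 CPM in knockout and 53.4, 53.1 and 48.1 CPM in control libraries (log2 change -0.45, SE 0.16, adjusted p = 0.0429). Its knockout 3 lay inside the control range, so its groups overlapped, whereas those of Ndufab1 did not. Ndufs8, an iron-sulfur core subunit of the Q module, was at 86.7, 113 and 119 CPM in knockout and 144, 142 and 131 CPM in control libraries (log2 change -0.40, SE 0.12, adjusted p = 0.0204). Ndufa10 was at 130.1, 171 and 156 CPM in knockout and 198, 186 and 183 CPM in control libraries (log2 change -0.32, SE 0.10, adjusted p = 0.03). For both, every knockout value was below every control value, and Ndufa10 thus fell in Heavy RNA and rose in Light RNA. None of the 6 calls held without Heavy knockout 1 or in a fit of the Heavy libraries alone, which called 0 members (4 at an unadjusted p under 0.05).

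No core subunit other than Ndufs8 had a call in Heavy RNA. Ndufv1 was at 277, 260.1 and 202 CPM in knockout and 218, 236 and 236 CPM in control libraries. Ndufs1 was at 76.3, 45.5 and 40.0 CPM in knockout and 33.1, 42.9 and 48.6 CPM in control libraries, so knockout 1 was the highest library there. Ndufv2, the partner of Ndufv1 in the NADH-oxidising unit, was at 63.5, 119.6 and 137 CPM in knockout and 158, 132 and 126 CPM in control libraries. These 3 genes had overlapping groups. Ndufs3 was at 97.1, 129 and 138 CPM in knockout and 168, 149 and 141 CPM in control libraries (log2 change -0.34, SE 0.14, adjusted p = 0.0803), and did not overlap but did not pass. Ndufs7, which carries the last iron-sulfur cluster before ubiquinone, was at 50.3, 75.6 and 92.3 CPM in knockout and 87.5, 81.5 and 77.2 CPM in control libraries, with overlap.

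**Figure D3:**
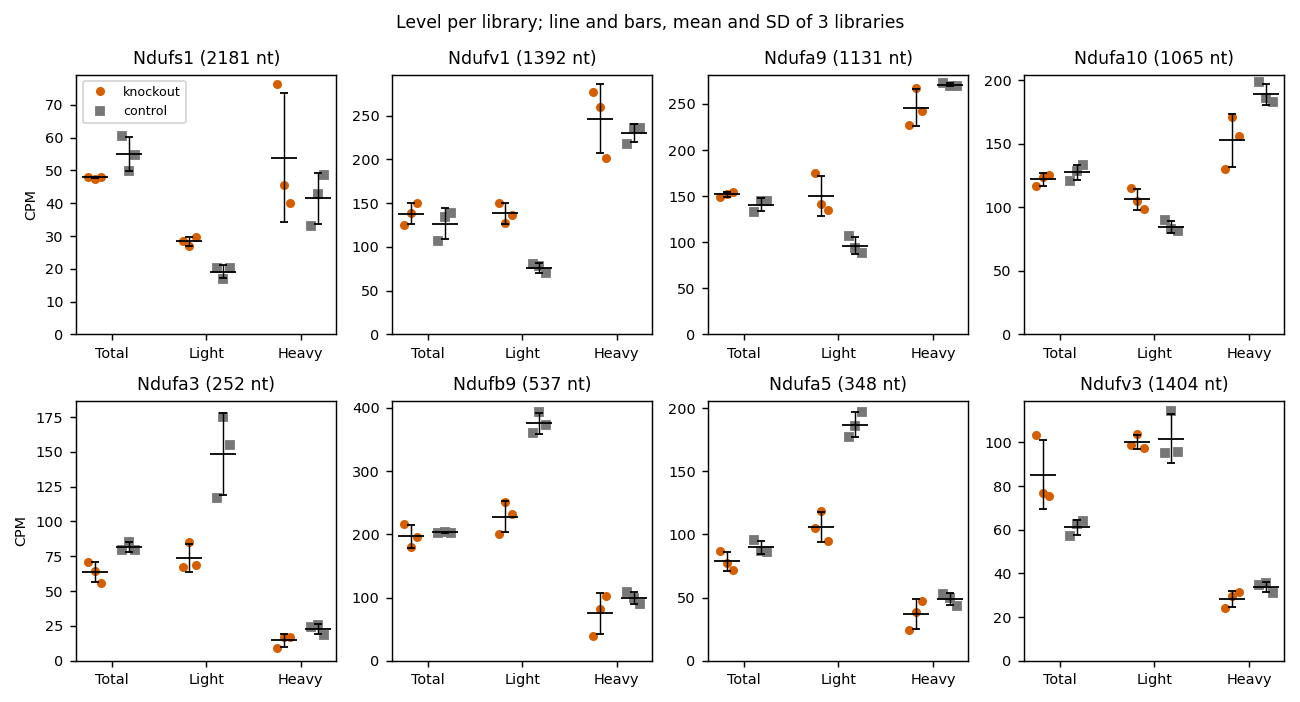
CPM of 8 members in each library (points), with the mean and SD of the 3 libraries as a line and bars, knockout left of control in Total, Light and Heavy RNA. The upper row (Ndufs1, Ndufv1, Ndufa9 and Ndufa10) is higher in knockout Light RNA than in control Light RNA, Ndufa3, Ndufb9 and Ndufa5 are lower, and Ndufv3 overlaps.

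Set against each other within the same cells, the Heavy and Light fractions divided the complex I messages sharply. In knockout cells 34 of 37 members were called, 5 higher in Heavy and 29 lower, where 43.6% of all genes were called, 16.8% higher and 26.8% lower. In control cells the counts were also 5 and 29, where 50.7% of all genes were called, 23.6% higher and 27.1% lower. The median Heavy over Light difference of the members was -1.47 on the log2 scale in knockout cells and -1.56 in control cells, against -0.02 and 0.06 over genes averaging 1 CPM or more. The members higher in Heavy RNA in both kinds of cell included Ndufv1, Ndufa9, Ndufa10 and Ndufs1. Heavy and Light libraries did not overlap for 34 members in knockout cells, where 46.3% of all genes did not, and for 37 in control cells, where 58.4% did not. Ndufab1, Ndufs3 and Ndufs8 had no call in either. Quantile normalization left the members at 5 higher and 29 lower in knockout cells, while over all genes it moved the share of calls that were higher to 55.8%, where it was 38.6% as deposited. CPM is a share of each fraction's own reads, so these differences are not a rate of translation.

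Ndufv1 stood well above 0 on this measure. In knockout cells it was at 277, 260.1 and 202 CPM in Heavy and 150.5, 127 and 137 CPM in Light RNA (log2 difference 0.82, SE 0.13, adjusted p = 8.27e-05). In control cells it was at 218, 236 and 236 CPM in Heavy and 81.0, 77.8 and 69.8 CPM in Light RNA (log2 difference 1.58, SE 0.13, adjusted p = 3.97e-08). Heavy exceeded Light in every library of either kind of cell. At the other end was Ndufc1, a single-pass membrane subunit of 228 nt. In knockout cells it was at 10.2, 16.0 and 17.0 CPM in Heavy and 81.8, 93.0 and 93.8 CPM in Light RNA (log2 difference -2.58, SE 0.17, adjusted p = 1.04e-07). In control cells it was at 15.9, 15.7 and 13.5 CPM in Heavy and 107, 158 and 124 CPM in Light RNA (log2 difference -3.01, SE 0.17, adjusted p = 4.09e-09). Its Heavy levels were far below its Light levels in every library. Next lowest were Ndufa2, an N module subunit with a thioredoxin fold (-2.33 in knockout and -2.80 in control cells), Ndufa1 (-2.32 and -2.63) and Ndufa3 (-2.31 and -2.64). Ndufa2 was at 27.8, 43.3 and 52.6 CPM in Heavy and 172, 218 and 228 CPM in Light RNA of knockout cells, and at 39.1, 46.9 and 34.0 CPM in Heavy and 258, 336 and 259 CPM in Light RNA of control cells. Ndufa1, whose whole coding sequence is printed above, was at 5.66, 12.1 and 12.4 CPM in Heavy and 46.1, 62.5 and 47.2 CPM in Light RNA of knockout cells, and at 10.0, 9.80 and 7.94 CPM in Heavy and 54.9, 72.05 and 61.3 CPM in Light RNA of control cells. In both genes every Heavy value was below every Light value. Of others higher in Heavy RNA, Ndufs1 had differences of 0.85 in knockout and 1.07 in control cells, Ndufa9 of 0.71 and 1.49, and Ndufa10 of 0.51 and 1.15. Ndufa9 was at 228, 267 and 242 CPM in knockout and 273, 269.8 and 269.9 CPM in control Heavy libraries.

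The split again ran with coding length. The 27 members of up to 600 nt had a median Heavy over Light difference of -1.54 in knockout cells and -1.85 in control cells, with 26 called lower in each, beside -1.19 and -1.45 for all genes of that length, of which 85.3% and 85.5% were lower. The 6 members over 1000 nt had medians of 0.76 and 1.32, beside 0.20 and 0.31 for all genes of that length. Spearman's rho with coding length over the 37 members was 0.72 in knockout and 0.79 in control cells, and over 11032 genes it was 0.48 and 0.40, as a description. With the trend over coding length removed, the members' median was -0.52 in knockout and -0.57 in control cells. That trend was taken over all tested genes with a coding length, low genes included. The length medians above are of genes averaging 1 CPM or more, so part of their trend may remain in these values.

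Ndufv3 did not follow its annotated length. With the long form of 1404 nt it is longer than every member but Ndufs1, yet it was at 24.3, 29.8 and 31.3 CPM in Heavy and 98.9, 104 and 97.5 CPM in Light RNA of knockout cells (log2 difference -1.78, SE 0.13) and at 34.6, 35.4 and 31.1 CPM and 95.1, 115 and 95.6 CPM in control cells (-1.56, SE 0.13). Every Heavy value was below every Light value, as in the short members. Its differences lie within the range of the members of up to 600 nt, -2.58 to -0.38 in knockout and -3.01 to -0.35 in control cells. In the short form, the junction shown in capitals above stands in place of the exon of 1092 nt. Which form the counted reads came from was not tested.

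**Figure D4:**
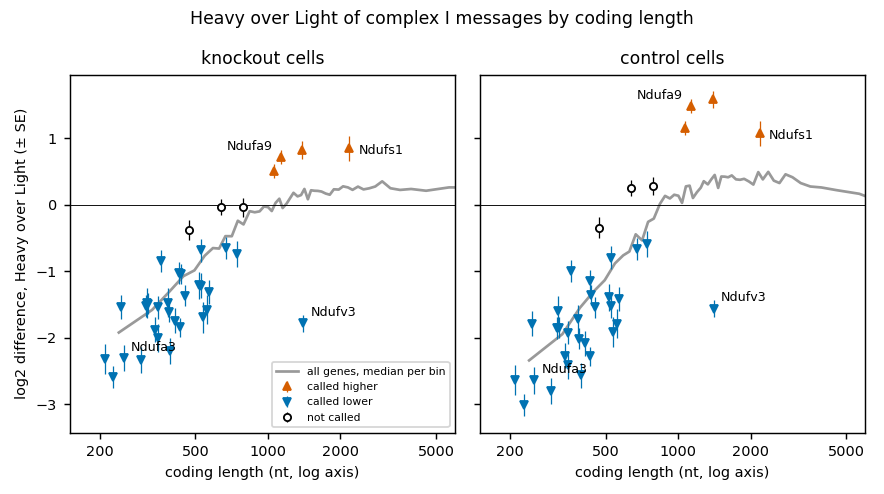
Log2 difference of Heavy over Light RNA (vertical, with SE) against coding length in nt (horizontal, log axis) for 36 members in knockout and control cells. The grey line is the median in length bins of all genes averaging 1 CPM or more. Ndufa9 lies at 0.71 in knockout and 1.49 in control cells, and Ndufv3 lies among the short members' values at -1.78 and -1.56.

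In the fit over all 18 libraries, which does not pair the fractions, the Heavy over Light difference changed with the knockout for 4 members. None of the 4 passed with each lysate as a block or in a fit of the Heavy and Light libraries alone. All 4 fell, where 2.87% of all genes were called, 2.52% lower and 0.354% higher, and 5 members had an unadjusted p under 0.05. They included Ndufa9 (log2 change -0.78, SE 0.15, adjusted p = 0.0212), Ndufv1 (log2 change -0.76, SE 0.18, adjusted p = 0.0373) and Ndufa10 (log2 change -0.64, SE 0.15, adjusted p = 0.0311). Matching Heavy to Light by library number, the Heavy minus Light log2 difference of Ndufa9 was 0.38, 0.92 and 0.84 in knockout and 1.35, 1.51 and 1.60 in control cells. Every knockout value was below every control value. For Ndufv1 it was 0.88, 1.02 and 0.56 in knockout and 1.42, 1.58 and 1.74 in control cells, and for Ndufa10 0.18, 0.70 and 0.66 in knockout and 1.14, 1.16 and 1.17 in control cells, also without overlap. The 4 members called were those whose knockout values all lay below the controls, beside 17.2% of all genes, and 1 member, Ndufa2, had all of them above, beside 8.84%.

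The 27 members of up to 600 nt had changes of -0.03 to 0.47, with a median of 0.32 and 0 called, beside 0.26 for all genes of that length. The 6 over 1000 nt had a median of -0.70, beside -0.13 for all genes of that length. Spearman's rho between length and change was -0.79 over the 37 members and -0.17 over 11032 genes, as a description. No label states that same-numbered Heavy and Light libraries share a lysate, but they deviated together. With each lysate, inferred in this way, as a block 0 members were called (5 at an unadjusted p under 0.05), beside 0.0571% of all genes. In that fit the adjusted p was 0.0724 for Ndufa9, 0.0692 for Ndufv1 and 0.091 for Ndufa10. Without Heavy knockout 1, 18 members were called, these 4 lower and 14 higher, where 11.5% of all genes were called. Without any 1 of the 3 Heavy control libraries, or without Light control 2 or 3, 0 were called (4 or 5 at an unadjusted p under 0.05), and without Light knockout 1 or Heavy knockout 3 there were 2. Median-of-ratios scaling also gave 0 (6 at an unadjusted p under 0.05), and with it 53.1% of calls over all genes were higher, where the deposited scaling gave 12.3%. The median over the 37 members was 0.21, and it was 0.51 without Heavy knockout 1 and -0.03 without Heavy knockout 3.

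The proteins that assemble complex I included several that fell in Total RNA. Of 17 assembly factors in the table, 5 fell and 0 rose in Total RNA, with a median of -0.26, where 10.3% of all genes fell. In Light RNA 6 fell and 2 rose, where 12.7% of all genes fell and 26.8% rose. In Heavy RNA 8 fell and 0 rose, where 10.4% of all genes fell. Without Heavy knockout 1, 5 fell in Heavy RNA and 1 rose, where 8.43% of all genes fell and 17.1% rose. The lowest p was that of Ndufaf2, an assembly factor related to the subunit Ndufa12. It was at 20.3, 23.5 and 21.004 CPM in knockout and 58.9, 51.0 and 49.4 CPM in control Total libraries (log2 change -1.26, SE 0.20, adjusted p = 0.00021). Every knockout value was below every control value, and it also fell in Light (-1.70) and Heavy RNA (-1.40, or -1.07 without Heavy knockout 1, still called). The subunit Ndufa12 fell in Light RNA (-0.64), and its changes in Total (-0.25) and Heavy RNA (-0.32) did not pass. The other factors that fell in Total RNA were Ndufaf4 (-0.84), Timmdc1 (-0.54), Tmem186 (-0.52) and Ecsit (-0.46), which act on early or membrane arm intermediates. Those that rose in Light RNA were Ndufaf1 (0.69) and Acad9 (0.43), which also act on membrane arm intermediates.

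Subunits of complexes III and V were called in both directions in Light RNA, all complex IV calls were lower, and in complex II the 1 call was Sdha, higher. Over all genes tested, 26.8% were called higher and 12.7% lower there. Of 9 complex III subunits, the large core proteins Uqcrc1 (0.97) and Uqcrc2 (0.75) rose, and the small Uqcrh (-0.80) and Uqcrb (-0.73) fell. Of 15 ATP synthase subunits, the catalytic head proteins Atp5a1 (0.90) and Atp5b (0.78) rose and 6 fell. Of 10 complex IV subunits 5 fell and 0 rose, with a median of -0.57, and all 10 were lower in Heavy than in Light RNA in both kinds of cell. Over all genes tested, 26.8% were called lower in Heavy in knockout cells and 27.1% in control cells. Of all genes of up to 600 nt averaging 1 CPM or more, 85.3% and 85.5% were, and 43.6% fell in Light RNA. The complex II flavoprotein Sdha was at 183, 173 and 166 CPM in knockout and 108, 112 and 113 CPM in control Total libraries (log2 change 0.64, SE 0.16, adjusted p = 0.00722), and rose in Light (1.34) and Heavy RNA (0.90, or 0.66 without Heavy knockout 1, still called) as well. In the test of the change between Heavy and Light, Uqcrc1 (-0.82), Uqcrc2 (-0.71) and Atp5b (-0.89) fell, where 2.52% of all genes did. All 3 were also called without Heavy knockout 1, and none with each lysate as a block (adjusted p = 0.0742, 0.0718 and 0.0613 in that order). Of 11 regulators of mitochondrial biogenesis 0 were called in Total RNA, where 26.4% of all genes were called. In Light RNA the mitochondrial RNA polymerase Polrmt rose (0.78), and in Heavy RNA Polrmt rose (0.59) while the transcription factor Nrf1 (-0.48) and the rRNA methyltransferase Tfb1m (-0.45) fell. Over all genes, 18.5% rose and 10.4% fell in Heavy RNA. Without Heavy knockout 1, Nrf1 (-0.32) and Tfb1m (-0.49) were still called, and Polrmt was not (0.43, adjusted p = 0.0587). The 7 complex I genes of mitochondrial DNA, looked up by symbol, were not found in the deposited table and so were not analysed here.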

How the data were processed

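Expression was measured by RNA sequencing (TruSeq v2 libraries, NextSeq, per the labels' protocols) in 18 libraries of Total, Light and Heavy RNA. The authors deposited log2(CPM + 1) values per gene, and the submitters' processing notes name STAR, edgeR and mm10. The sources used here give no counter, annotation or strand setting. Whole reads were recovered from all values within 0.1 read, and are used only in alternatives. The test was planned for counts with a fallback for log values, and the fallback was used: limma 3.58.1 (R 4.3.3, trend and robust) over 6 group means with 12 residual degrees of freedom, on 17515 genes above 0 in at least 3 libraries, with Benjamini-Hochberg adjusted p under 0.05, two-sided. Fold changes on the log2(CPM + 1) scale understate those of low genes. The test was checked on simulated counts, drawn independently for each library, in the knockout comparison in Light RNA only. That check does not cover paired Heavy and Light libraries. Groups did not overlap where every value of one lay above every value of the other. Coding lengths and sequences come from GENCODE M21 and gene positions from RefSeq GRCm38.p6, matched by gene ID. The coding-length trend that was removed is the median, per length bin, of all tested genes with a coding length, low genes included. The length medians given beside the members are of genes averaging 1 CPM or more. Tables and plots used Python 3.11.15, pandas 2.3.3, numpy 2.4.6 and matplotlib 3.10.9. Replicates differed beyond sampling noise, so each library counts once. Same-numbered Heavy and Light libraries had correlated deviations (0.368 to 0.471 in 3 control pairs and 0.263 to 0.641 in 3 knockout pairs), so they were taken as paired by lysate. No label states this pairing. The correlation was highest at the library's own number for 3 of 3 in control cells and 2 of 3 in knockout cells. The members and the gene lists were chosen with earlier results of these data known. Values in every library were given, by rule, for the core subunits and, per comparison, for up to 4 called members with the highest and 4 with the lowest change. The gene of lowest p in another list could also be named, and was for some lists and comparisons. Other genes were named after their values were seen. Of the members this rule names, 1 is counted but not reported here.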

Additional observations from a re-analysis of the deposited data

Results flagged for a closer look

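The Heavy over Light difference of Ndufa9, Ndufv1 and Ndufa10 passed limma's test of its change with the knockout in the fit over all 18 libraries, which does not pair the fractions. None of the 3 passed with each lysate as a block, the fit that pairs Heavy with Light (adjusted p = 0.0724 for Ndufa9, 0.0692 for Ndufv1 and 0.091 for Ndufa10), or in the fit of the Heavy and Light libraries alone. All 3 encode subunits with coding sequences over 1000 nt and had a smaller difference in knockout than in control cells in 3 of 3 library numbers. Ndufa9, at the junction of the arms, changed by -0.78 on the log2 scale and was called in 17 of 26 alternatives. Ndufv1, the NADH-binding flavoprotein, changed by -0.76 and was called in 10 of 26. Ndufa10, of the membrane arm, changed by -0.64 and was called in 14 of 26. Their adjusted p over these alternatives reached 0.0859 for Ndufa9 and 0.108 for Ndufv1 and Ndufa10, with no change of sign.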

How the results depend on the processing

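Called members kept their sign in every alternative in the knockout comparisons and in the change between fractions. Heavy over Light, with the coding-length trend removed, the sign turned for Ndufc2 in both kinds of cell (highest values 0.51 in knockout and 0.62 in control cells) and for Ndufa4 (0.09) and Ndufb2 (0.01) in control cells. The members' median kept its sign in 5 of the 6 comparisons, and turned negative in the change between fractions without Heavy knockout 3. In Total RNA, the members called numbered 5 with only the libraries of the comparison and 4 without the knockout libraries numbered 1, and 0 to 1 without each Total library in turn. The median was -0.12 under median-of-ratios scaling and -0.10 without the knockout libraries numbered 1, and -0.10 to -0.035 without each library. In Light RNA, 12 were called with the coding-length trend removed and 13 to 22 without each Light library. The median was -0.69 under median-of-ratios scaling, -0.23 with the trend removed, and -0.53 to -0.39 without each library. In Heavy RNA, 19 were called under median-of-ratios scaling, 0 with only the libraries of the comparison, 2 without the knockout libraries numbered 1 and 0 to 20 without each library, and the median was -0.40 to -0.08. Heavy over Light, the median with the length trend removed was -0.52 in knockout and -0.57 in control cells, with or without a replicate block by lysate, and -1.41 in control cells under quantile normalization. Without each library it was -1.65 to -1.12 in knockout and -1.61 to -1.49 in control cells. Of the change between fractions, 2 members were called under quantile normalization, 0 under median-of-ratios scaling, with only the libraries of the comparison or with the replicate block by lysate, 1 with that block and the length trend removed, and 16 without the knockout libraries numbered 1 (12 higher, 4 lower). Without each library the count was 0 to 18 and the median -0.03 to 0.51. The lysate blocks were added after the data were seen. With the replicate number as a block there were 1, 24 and 6 calls in Total, Light and Heavy RNA, 34 in both Heavy over Light comparisons and 3 in the change, where Ndufv1 was lost. Knockout and control libraries of one number did not deviate together in all pairs (-0.49 to 0.60). The cause of these differences was not tested. With 3 libraries a group, small changes were not detectable.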
